A study of Mus musculus with 16 samples.

Results

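The 41 interferon-stimulated genes described here were chosen by their gene symbols, as known targets of interferon signalling, from the 24411 genes in the deposited tables of spinal cord RNA sequencing. They cover transcription factors, nucleic acid sensors, the OAS family, antiviral effectors, genes of ISG15, ubiquitin and ADP-ribosylation, guanylate-binding proteins, and 8 other targets. All 41 were found, and 40 passed the filter of a mean TPM (a transcript level normalized for gene length and library size) above 1 in at least 1 condition. Oas3, a synthase of 2'-5' oligoadenylates, did not pass, with 0 counts in both Uninjured Control mice and between 1 and 115 in each mouse with spinal cord injury (SCI).

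Interferons are secreted signals of antiviral defence. Type I interferons bind the IFNAR1 and IFNAR2 receptor, whose kinases JAK1 and TYK2 phosphorylate STAT2 and other factors, and STAT2 joins IRF9 in a complex that binds interferon-stimulated response elements (ISREs) in the promoters of its targets. Type II interferon acts through JAK1 and JAK2 on gamma-activated sites (GAS). In the central nervous system microglia, astrocytes and invading leukocytes can all express these targets.

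All 16 mice were female C57BL/6J. The 7 SCI + Atorvastatin and 7 SCI + Vehicle mice were injured at 12 wk of age by lateral compression to 0.25 mm at the thoracic level, and from 2 wk after injury they received daily injections for 4 wk, either of atorvastatin at 10 mg/kg, a statin that lowers cholesterol synthesis, or of its vehicle of DMSO, PEG 400, Tween 80 and saline. A 5 mm segment around the injury was taken at 6 wk after injury, and the matching segment was taken from 2 mice that had neither injury nor injections, the Uninjured Control group. The labels give 12 wk as the age of the controls, so that they were younger at isolation than the injured mice, and the study's methods give a slightly later day of isolation and an older age for the controls, still below that of the injured mice. Age, laminectomy, injections and injury cannot be told apart in any comparison with the controls, and in bulk tissue fewer cells of a type and less RNA per cell cannot be told apart either.

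Libraries held 14823292 to 25579826 counts on genes, the fewest in SCI + Vehicle replicate 4. Markers of neurons, oligodendrocytes and astrocytes were abundant in every mouse, as the spinal cord label implies. Both controls stood apart. They had counts for 12732 and 12356 genes, against 16399 to 19338 in the SCI mice, and of 7699 genes that averaged between 100 and 1000 counts after injury, controls 1 and 2 listed 15.1% and 18.1% at 0, where no SCI mouse listed more than 0.299%. Summed over 7 liver genes they carried 1203 and 7004 TPM, against at most 13.5 TPM in the SCI mice. Among the interferon-stimulated genes, 11 had 0 counts in both controls, 12 had 0 counts in either control 1 or control 2 alone, and 18 had counts in both. In the same window of 100 to 1000 counts, 5 of 32 members (15.6%) were at 0 in both controls, against 6.83% of every gene in it. Mavs, an adaptor of RNA sensing, was likewise at 0 in both controls although each SCI mouse held 278 to 594 counts. A count of 0 allows up to 3 counts, or 0.148 and 0.134 CPM (counts scaled by library size) in controls 1 and 2, an interval that covers counting error only.

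The promoters of these genes are shown because the ISRE is the shared sequence through which the complex of STAT2 and IRF9 acts. RefSeq promoter windows on GRCm38.p6 matched 33 of the 41 members, and Dhx58, Zbp1, Oas2, Usp18, Parp9, Parp14, Ifi27 and Rtp4 had no entry. In the 250 bases before the start site, the ISRE core GAAANNGAAA, searched on both strands, was found in 13 of 33 members (39.4%) and in 3.46% of the 27025 genes in the same table. The GAS letters TTCNNNGAA, which read alike on both strands, were found in 6 of 33 members (18.2%) and in 8.13% of all genes. The lines below give the 250 bases of the 8 members with an ISRE and the highest mean TPM, 5' to 3' on the strand of the gene, with each ISRE match in capitals. Matches overlap in Gbp3, Bst2 and Isg15.
Ifit3 (chr19:34583279-34583528, plus strand): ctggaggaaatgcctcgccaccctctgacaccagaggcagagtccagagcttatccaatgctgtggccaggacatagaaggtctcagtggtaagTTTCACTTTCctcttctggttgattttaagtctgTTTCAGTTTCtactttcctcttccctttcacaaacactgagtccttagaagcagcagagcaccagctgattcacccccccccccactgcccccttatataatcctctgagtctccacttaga
Ifitm2 (chr7:140955962-140956211, minus strand): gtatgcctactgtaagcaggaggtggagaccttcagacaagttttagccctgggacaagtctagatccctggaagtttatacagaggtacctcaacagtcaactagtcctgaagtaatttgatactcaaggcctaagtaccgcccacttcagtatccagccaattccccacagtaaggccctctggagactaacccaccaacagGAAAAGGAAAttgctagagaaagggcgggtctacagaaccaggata
Gbp3 (chr3:142559794-142560043, plus strand): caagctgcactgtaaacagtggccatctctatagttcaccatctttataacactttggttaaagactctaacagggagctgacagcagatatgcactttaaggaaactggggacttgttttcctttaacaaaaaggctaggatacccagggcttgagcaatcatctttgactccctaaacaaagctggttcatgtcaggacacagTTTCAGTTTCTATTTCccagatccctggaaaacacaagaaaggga
Gbp2 (chr3:142620413-142620662, plus strand): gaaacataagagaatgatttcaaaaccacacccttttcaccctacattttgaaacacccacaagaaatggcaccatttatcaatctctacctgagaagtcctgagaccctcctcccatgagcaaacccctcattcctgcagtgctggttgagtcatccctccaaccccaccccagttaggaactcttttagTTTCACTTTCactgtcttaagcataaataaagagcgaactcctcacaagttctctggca
Bst2 (chr8:71537473-71537722, minus strand): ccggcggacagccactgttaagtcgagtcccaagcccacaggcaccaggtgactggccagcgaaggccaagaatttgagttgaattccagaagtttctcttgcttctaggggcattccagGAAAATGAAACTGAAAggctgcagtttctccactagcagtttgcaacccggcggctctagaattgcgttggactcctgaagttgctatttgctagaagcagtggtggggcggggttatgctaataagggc
Ifit1 (chr19:34640639-34640888, plus strand): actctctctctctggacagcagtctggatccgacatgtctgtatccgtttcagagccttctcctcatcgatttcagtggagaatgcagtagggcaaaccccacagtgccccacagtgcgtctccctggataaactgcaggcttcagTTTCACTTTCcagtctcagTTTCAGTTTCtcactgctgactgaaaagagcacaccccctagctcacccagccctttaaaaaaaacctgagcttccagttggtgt
Stat2 (chr10:128270248-128270497, plus strand): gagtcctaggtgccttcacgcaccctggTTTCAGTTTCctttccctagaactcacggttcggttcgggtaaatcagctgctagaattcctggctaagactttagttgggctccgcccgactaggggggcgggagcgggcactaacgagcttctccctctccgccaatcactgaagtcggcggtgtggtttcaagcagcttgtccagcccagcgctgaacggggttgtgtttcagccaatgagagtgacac
Isg15 (chr4:156200819-156201068, minus strand): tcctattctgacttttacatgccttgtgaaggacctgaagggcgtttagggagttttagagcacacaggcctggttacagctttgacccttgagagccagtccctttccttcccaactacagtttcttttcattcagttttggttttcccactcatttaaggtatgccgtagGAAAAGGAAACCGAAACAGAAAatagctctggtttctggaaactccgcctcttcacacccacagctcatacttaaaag

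Isg15, the ubiquitin-like modifier that names the group, held 3 overlapping ISRE matches between 78 and 57 bases before its start. Ifit1 and Ifit3, neighbours that encode RNA-binding proteins, each held a pair of separate matches on the opposite strand. Stat2, itself a part of the complex that binds the element, held its match far upstream, at 222 to 213 bases before the start. In Irf1, a transcription factor induced mainly by type II interferon, no ISRE match was found and a GAS match lay 90 to 82 bases before the start.
Irf1 (chr11:53769764-53770013, plus strand): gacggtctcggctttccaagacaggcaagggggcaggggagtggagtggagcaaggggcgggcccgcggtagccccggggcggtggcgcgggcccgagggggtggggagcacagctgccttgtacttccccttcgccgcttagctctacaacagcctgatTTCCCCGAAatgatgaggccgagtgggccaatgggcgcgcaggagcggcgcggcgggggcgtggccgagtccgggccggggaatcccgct
Of the members with a promoter window that were tested, 8 of 12 with an ISRE match and 8 of 20 without were called higher in SCI + Vehicle than in Uninjured Control. In SCI + Atorvastatin the counts were 9 of 12 and 11 of 20. Of all genes tested, 20.1% and 25.2% were called higher with vehicle and atorvastatin. Oas1a, Rsad2, Bst2 and Isg15 with a match, and Ifi44 and Slfn2 without, had 0 counts in both controls. The filter largely fixed their calls, so the counts with and without a match are a description only. A match describes the letters only and was not tested as a binding site.

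Several members are neighbours in the genome, and 19 of the 41 lay within 1 Mb of another member, in 7 groups (GRCm38.p6). Ifit2, Ifit3 and Ifit1 lie at chr19:34550550-34650009, Gbp7, Gbp3 and Gbp2 at chr3:142530336-142638008, and Oas2, Oas3 and Oas1a at chr5:120730333-120907544. Parp14, Dtx3l and Parp9 lie at chr16:35831892-35972621. The Ifit, Gbp, Ifitm, Oas and Oasl genes are families of related sequence whose reads may be shared between copies, so the split within each family is uncertain.

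**Figure D1:**
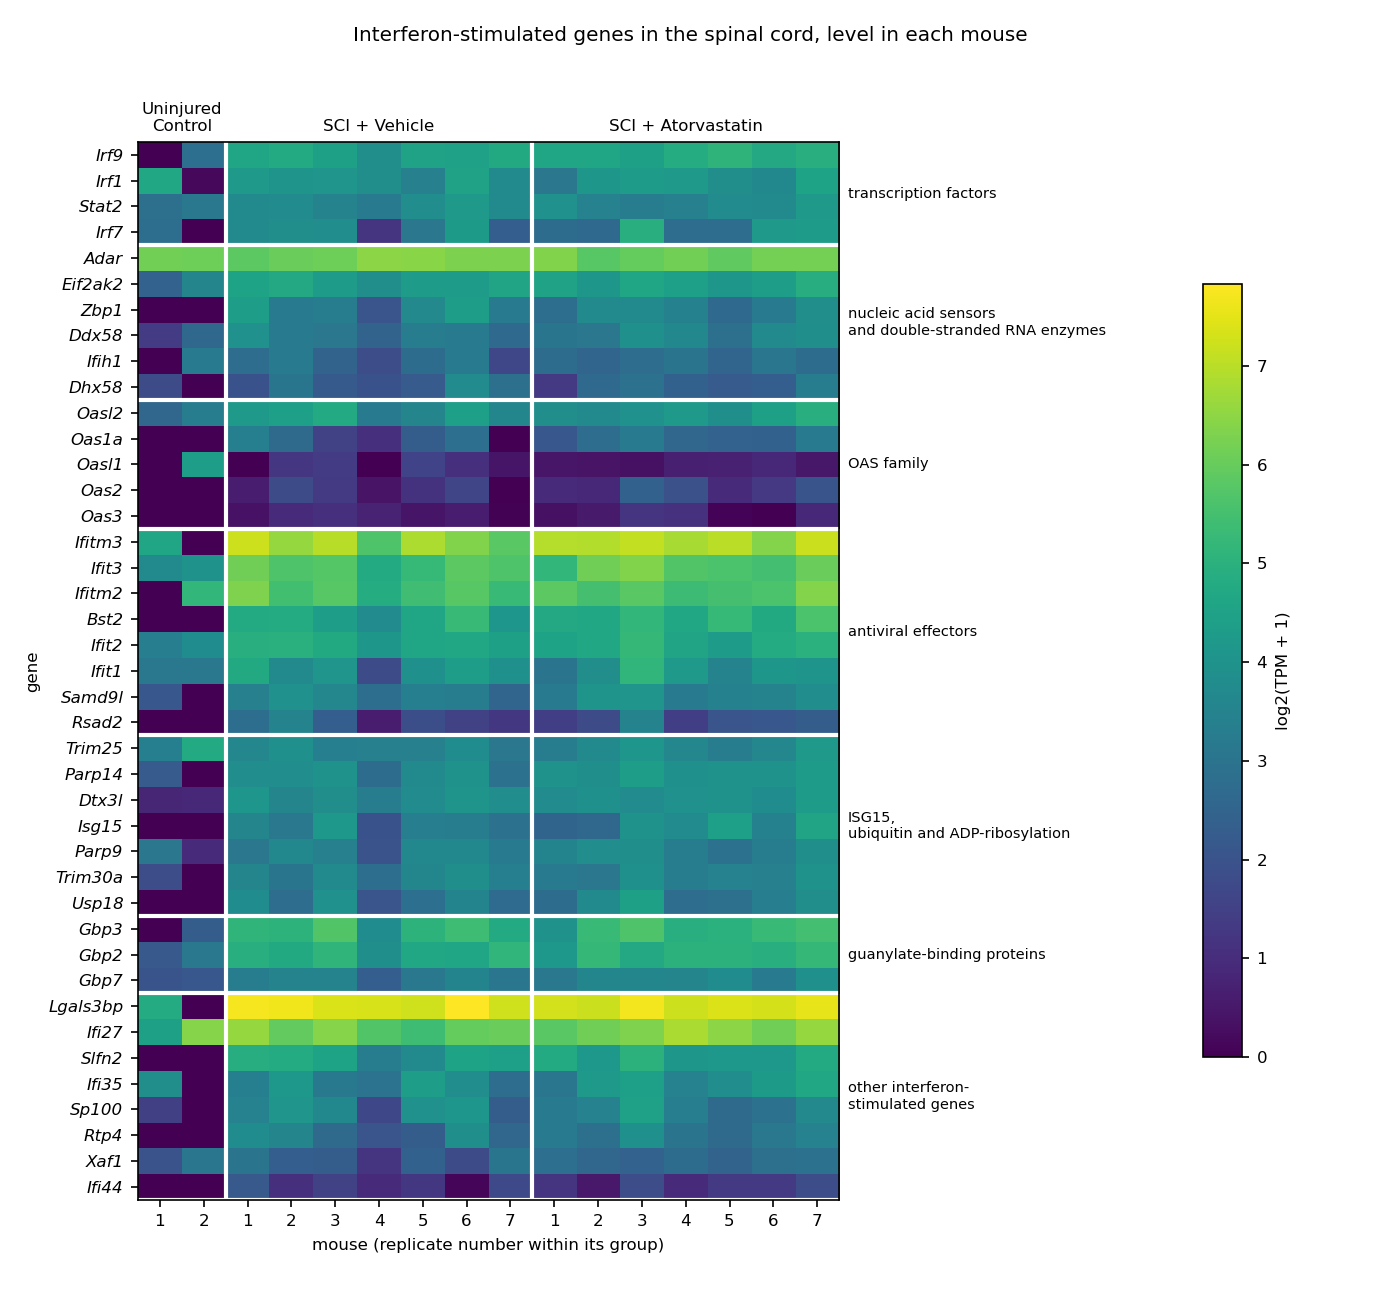
Level of each of the 41 members (rows, grouped by role) in each of the 16 mice (columns), as log2(TPM + 1) on the color scale. Lgals3bp and Ifitm3 were the highest rows in the SCI mice, and most rows were darkest in the 2 Uninjured Control mice, where 11 members had no counts.

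By level, the secreted glycoprotein gene Lgals3bp led the members in the injured cord, with a mean of 175 ± 26 TPM (SD, n = 14 SCI mice). Ifitm3, an inhibitor of viral entry, followed at 108 ± 31.3 TPM, then Ifi27, a mitochondrial apoptosis-related gene, at 73.5 ± 19.97 TPM and the RNA-editing enzyme Adar at 70.5 ± 10.1 TPM. Ifi27 and Adar differed by less than the spread between mice, as did Ifit3 (52.4 ± 14.6 TPM) and Ifitm2 (50.8 ± 14.9 TPM). At the other end, Oas2, Ifi44, Oasl1 and Oas3 had means of 1.62, 1.59, 0.708 and 0.578 TPM. The coefficient of variation over the 14 mice was 14.3% for Adar, 14.9% for Lgals3bp and 17.4% for Dtx3l, and reached 79.2% for Rsad2 and 83.7% for Oasl1. Summed over the 41 members, the level was 610, 981 and 1141 TPM (lowest, median and highest) in SCI + Vehicle, 849, 944 and 1254 TPM in SCI + Atorvastatin, and 275 and 340 TPM in the controls, so that both SCI groups lay above both controls and overlapped each other.

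Comparing each SCI condition with Uninjured Control asks how the injured cord differed from the uninjured one several weeks after injury. Of the 40 members tested, 20 were called higher in SCI + Vehicle vs. Uninjured Control (edgeR, change above 25%, adjusted p below 0.05) and 0 lower, where 20.1% of all genes tested were called higher and 9.69% lower. In SCI + Atorvastatin vs. Uninjured Control, 24 of 40 were called higher and 0 lower, where 25.2% and 14.2% of all genes were. DESeq2 called 24 and 27 members higher and 0 lower. Of all genes it called 4045 of 15938 and 4642 of 15922 higher, and 1955 and 2565 lower. In edgeR 1 member had an unadjusted p below 0.05 in the lower direction in each comparison, Trim25 with vehicle and Oasl1 with atorvastatin. The same 2 controls enter both comparisons, so they are not independent. The median log2 fold change of the members was 1.89 and 2.12 with vehicle and atorvastatin, where the median of all genes was 0.18 and 0.22. Counting a 0 as 0, every SCI + Vehicle mouse lay above both controls for 24 of 40 members, where 25.1% of all genes did, and every SCI + Atorvastatin mouse for 29 of 40, where 30.1% of all genes did.

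The calls were uneven over the members' counts in the controls. Of the 18 with counts in both controls, 7 were called higher with vehicle and 10 with atorvastatin, where 12.1% and 16.8% of all such genes were, and their median log2 fold change was 0.89 and 1.06, where that of all such genes was -0.04 and -0.03. Of the 12 with 0 counts in 1 control, 3 and 4 were called, where 7.54% and 9.52% of all such genes were. The 10 tested members with 0 counts in both controls could pass the filter only through a high level in an SCI group, so that their calls, all higher in both comparisons, were largely fixed by it, and 73.2% and 84.2% of all such genes were called higher. They enter the counts called by role below: Zbp1 (sensors), Oas1a and Oas2, Rsad2 and Bst2 (effectors), Isg15 and Usp18, and Ifi44, Rtp4 and Slfn2 (other targets). Each count by role stands beside the same shares of all genes called higher, 20.1% with vehicle and 25.2% with atorvastatin. With a voom fit that gives each group its own spread, 0 members were called in either comparison, with 1 and 2 members at an unadjusted p below 0.05. That fit called few genes of any kind, 22 of 15938 higher with vehicle and 31 of 15922 with atorvastatin. Its 0 therefore says little about the members. Without SCI + Vehicle replicate 6, 13 members were called higher in SCI + Vehicle.

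The 18 with counts in both controls carry a measured fold change. Stat2 and Irf9, which bind each other and the ISRE, were called higher in both SCI conditions. Irf9 measured 13.4, 25.3 and 27.4 CPM (TMM-normalized; lowest, median and highest) in SCI + Vehicle, 20.5, 24.5 and 35.6 CPM in SCI + Atorvastatin, and 1.21 and 5.49 CPM in the controls. Every SCI mouse was above both controls, and the SCI groups overlapped. The log2 fold change of Irf9 was 2.75 ± 0.57 (SE, adjusted p = 0.0048) with vehicle and 2.99 ± 0.55 (adjusted p = 0.00179) with atorvastatin, 6.73-fold and 7.93-fold. The size depends on the control used, and was 2.04 and 2.28 without control 1 and 4.22 and 4.45 without control 2, called in each. It is listed at 0 TPM in control 1, which had 24 counts. Stat2 measured 20.7, 28.8 and 33.8 CPM with vehicle, 22.4, 25.01 and 36.7 CPM with atorvastatin and 12.2 and 17.7 CPM in the controls, again with no overlap between SCI and control. Its log2 fold change was 0.90 ± 0.27 (adjusted p = 0.0304) and 0.87 ± 0.26 (adjusted p = 0.0222). Without control 1 the adjusted p of Stat2 was 0.0751 with vehicle and 0.0547 with atorvastatin, and it was also above 0.05 without SCI + Vehicle replicate 2 or 6, at 0.0545 or more.

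The other transcription factors did not pass. Irf1 measured 9.46, 16.4 and 20.7 CPM with vehicle, 11.4, 18.6 and 25.8 CPM with atorvastatin, and 14.9 and 20.6 CPM in the controls, so that both controls lay within the SCI range. Its log2 fold change with vehicle was -0.13 ± 0.34 (95% interval -0.89 to 0.63, adjusted p = 0.804). In control 2 it is listed at 0.13 TPM for 328 counts, so its TPM and counts go against each other there. Irf7, which amplifies type I interferon production, ranged from 2.73 to 12.7 CPM with vehicle and 3.99 to 19.1 CPM with atorvastatin, overlapped the controls at 0 and 4.17 CPM, and was not called in either condition.

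Among the nucleic acid sensors and double-stranded RNA enzymes, 2 of 6 were called higher with vehicle and 3 with atorvastatin. Eif2ak2 encodes PKR, a kinase that halts translation on binding double-stranded RNA. It measured 26.3, 35.3 and 45.1 CPM with vehicle, 30.8, 36.8 and 52.7 CPM with atorvastatin, and 8.6 and 24.1 CPM in the controls, with every SCI mouse above both. The log2 fold change was 1.16 ± 0.37 (adjusted p = 0.0382) and 1.27 ± 0.36 (adjusted p = 0.0172). The call with vehicle was lost in 7 of 9 fits without 1 mouse (SCI + Vehicle replicates 1, 2, 3, 5, 6 or 7, or control 1), at adjusted p of 0.0545 to 0.104. The log2 fold change of Eif2ak2 was 0.60 and 0.71 without control 1 and 2.08 and 2.18 without control 2. Ddx58, which encodes the RNA sensor RIG-I, was called only with atorvastatin, at a log2 fold change of 1.67 ± 0.49 (adjusted p = 0.0205) against 1.35 ± 0.56 (adjusted p = 0.0934) with vehicle, and the vehicle value was 0.76 without control 1 (adjusted p = 0.234) and 2.37 without control 2 (adjusted p = 0.00621). With atorvastatin Ddx58 was 1.077 and 2.68 without control 1 and control 2. Tested directly, the treatments differed in Ddx58 by 0.29 ± 0.23 (adjusted p = 0.808). Zbp1, a sensor of left-handed nucleic acid, had 0 counts in both controls and 12 to 170 counts in the SCI mice. Ifih1 and Dhx58, the other RNA helicases of the list, were not called.

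Adar, which edits adenosine in double-stranded RNA, was the most abundant of these enzymes and was close to the controls. It measured 148, 188 and 196 CPM with vehicle, 134, 165 and 181 CPM with atorvastatin, and 164 and 194 CPM in the controls. Both controls lay within the range of SCI + Vehicle, control 1 was above every SCI + Atorvastatin mouse, and the log2 fold change was -0.05 ± 0.14 with vehicle, with a 95% interval of -0.36 to 0.26.

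In the OAS family, whose members make the 2'-5' oligoadenylates that activate RNase L or are relatives without that activity, 2 of 4 tested were called higher with vehicle and 3 with atorvastatin. Oasl2 measured 9.27, 23.9 and 29.5 CPM with vehicle, 14.01, 17.6 and 33.3 CPM with atorvastatin, and 6.39 and 9.89 CPM in the controls. Only SCI + Vehicle overlapped the controls, and the log2 fold change was 1.28 ± 0.52 (adjusted p = 0.0875) with vehicle and 1.31 ± 0.38 (adjusted p = 0.0194) with atorvastatin. Without control 2 the adjusted p with vehicle was 0.0434. Oasl1 went the other way in value, with 0 counts in control 1, 322 counts in control 2, 0 to 53 counts with vehicle and 5 to 59 counts with atorvastatin. Its log2 fold change of -2.76 ± 1.42 with vehicle (adjusted p = 0.17) rests on control 2, and without control 1 it was -3.76 with an adjusted p of 0.00572. Oas1a and Oas2, the members called with vehicle, had 0 counts in both controls, with 14 to 149 and 6 to 211 counts in the SCI mice.

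Of the antiviral effectors, 4 of 8 were called higher with vehicle and 5 with atorvastatin. Ifit3, an RNA-binding inhibitor of translation, measured 14.3, 29.2 and 47.2 CPM with vehicle, 21.0, 35.0 and 52.3 CPM with atorvastatin, and 10.0 and 14.7 CPM in the controls. The lowest SCI + Vehicle mouse lay between the controls, and every SCI + Atorvastatin mouse was above both. Its log2 fold change was 1.25 ± 0.41 (adjusted p = 0.0423) and 1.57 ± 0.35 (adjusted p = 0.00522). With vehicle this call, too, was lost in 7 of 9 fits without 1 mouse (SCI + Vehicle replicates 1, 2, 3, 5, 6 or 7, or control 1), at adjusted p of 0.0536 to 0.0889. Ifit2, its neighbour, was called in both conditions, at log2 fold changes of 0.88 and 1.01, although with vehicle the call was lost without SCI + Vehicle replicate 6 (adjusted p = 0.0511) or control 1 (0.61, adjusted p = 0.0796), and Ifit1 was called in neither, at 0.83 and 1.02.

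Ifitm3 and Ifitm2, membrane proteins that block viral entry, lacked counts in 1 control each. Ifitm3 measured 11.8, 20.3 and 30.2 CPM with vehicle, 15.1, 25.7 and 28.6 CPM with atorvastatin, and 4.33 and 0 CPM in controls 1 and 2. Every SCI mouse was above both controls, and the log2 fold change was 3.14 ± 1.19 (adjusted p = 0.0697) with vehicle and 3.49 ± 1.13 (adjusted p = 0.0325) with atorvastatin. Without control 2, which had 0 counts, the vehicle value was 2.13 with an adjusted p of 0.00482, and without control 1 only the control at 0 was left and it was also called. With atorvastatin it was 2.48 without control 2, and the call was lost without any of replicates 1, 2, 3, 4, 5 or 7, at adjusted p up to 0.0590. Ifitm2 was not called, at 1.53 ± 1.22 with vehicle (adjusted p = 0.375). It was called higher without control 2, when the control at 0 counts alone was left, and with limma on log2(TPM + 1), at 2.97 (adjusted p = 0.0494). Samd9l, a regulator of endosomes and of antiviral translation arrest, was above both controls in every SCI mouse and was not called, at 2.28 and 2.66 with 0 counts in control 2. Without control 2 it was called in both conditions, at 1.27 (adjusted p = 0.0401) and 1.65 (adjusted p = 0.00331), as it was without control 1, when only the control at 0 was left. A fit of all 3 groups and limma on TPM called it in both, and DESeq2 with atorvastatin.

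Among genes of ISG15, ubiquitin and ADP-ribosylation, 3 of 7 were called higher in both conditions. Dtx3l, an E3 ubiquitin ligase that works with the ADP-ribosyltransferase PARP9, measured 15.1, 25.7 and 29.4 CPM with vehicle, 21.9, 25.3 and 33.2 CPM with atorvastatin, and 8.0 and 5.17 CPM in the controls. No SCI mouse overlapped the controls, and the log2 fold change was 1.86 ± 0.35 (adjusted p = 0.00276) and 2.01 ± 0.27 (adjusted p = 0.000326), 3.64-fold and 4.03-fold. Its TPM gave a wider gap, at 0.78 and 0.86 TPM in the controls and 8.87 to 18.75 TPM in the SCI mice, and limma on log2(TPM + 1) gave 2.92 and 3.07 for Dtx3l. Parp14, a mono-ADP-ribosyltransferase beside Dtx3l on chromosome 16, measured 16.2, 39.7 and 44.6 CPM with vehicle and 37.7, 44.2 and 59.1 CPM with atorvastatin, with 11.8 and 0 CPM in the controls. It was above the controls in every SCI mouse, but its log2 fold change of 2.55 ± 1.17 with vehicle did not pass (adjusted p = 0.126). Without control 2, the one at 0, it was 1.55 with an adjusted p of 0.0222, and it was also called without control 1, when only the control at 0 was left. Trim25, a ubiquitin ligase that activates RIG-I, ranged from 17.3 to 31.9 CPM with vehicle, 20.9 to 37.6 CPM with atorvastatin, and 22.2 and 68.5 CPM in the controls. Only control 2 was above the SCI range, and the log2 fold change of -0.95 ± 0.37 with vehicle (adjusted p = 0.0755) turned to 0.08 without control 2 and to -1.54 without control 1 (adjusted p = 0.000628).

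All 3 guanylate-binding proteins, GTPases that attack the membranes of intracellular pathogens, were called higher with atorvastatin, and 2 of them with vehicle. Gbp2 measured 12.1, 22.5 and 31.9 CPM with vehicle, 14.4, 27.6 and 31.8 CPM with atorvastatin, and 5.48 and 6.81 CPM in the controls. Both controls were close to each other and below every SCI mouse, and the log2 fold change was 1.91 ± 0.40 (adjusted p = 0.00486) and 2.08 ± 0.35 (adjusted p = 0.00103), 3.77-fold and 4.22-fold. Gbp3 had 0 counts in control 1 and 97 in control 2, and its log2 fold change was 3.88 ± 1.14 (adjusted p = 0.0268) and 4.00 ± 1.11 (adjusted p = 0.0167). Without SCI + Vehicle replicate 3 or 6 its adjusted p with vehicle was 0.0508 or 0.0522, and without control 1, the one at 0, Gbp3 was at 2.89 and 3.01. Gbp7 measured 8.66, 20.6 and 25.8 CPM with vehicle, where the lowest mouse was below both controls (11.3 and 12.9 CPM), and 16.3, 27.3 and 32.2 CPM with atorvastatin, where every mouse was above them. Its log2 fold change was 0.70 ± 0.39 (adjusted p = 0.204) and 1.10 ± 0.29 (adjusted p = 0.0138).

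**Figure D2:**
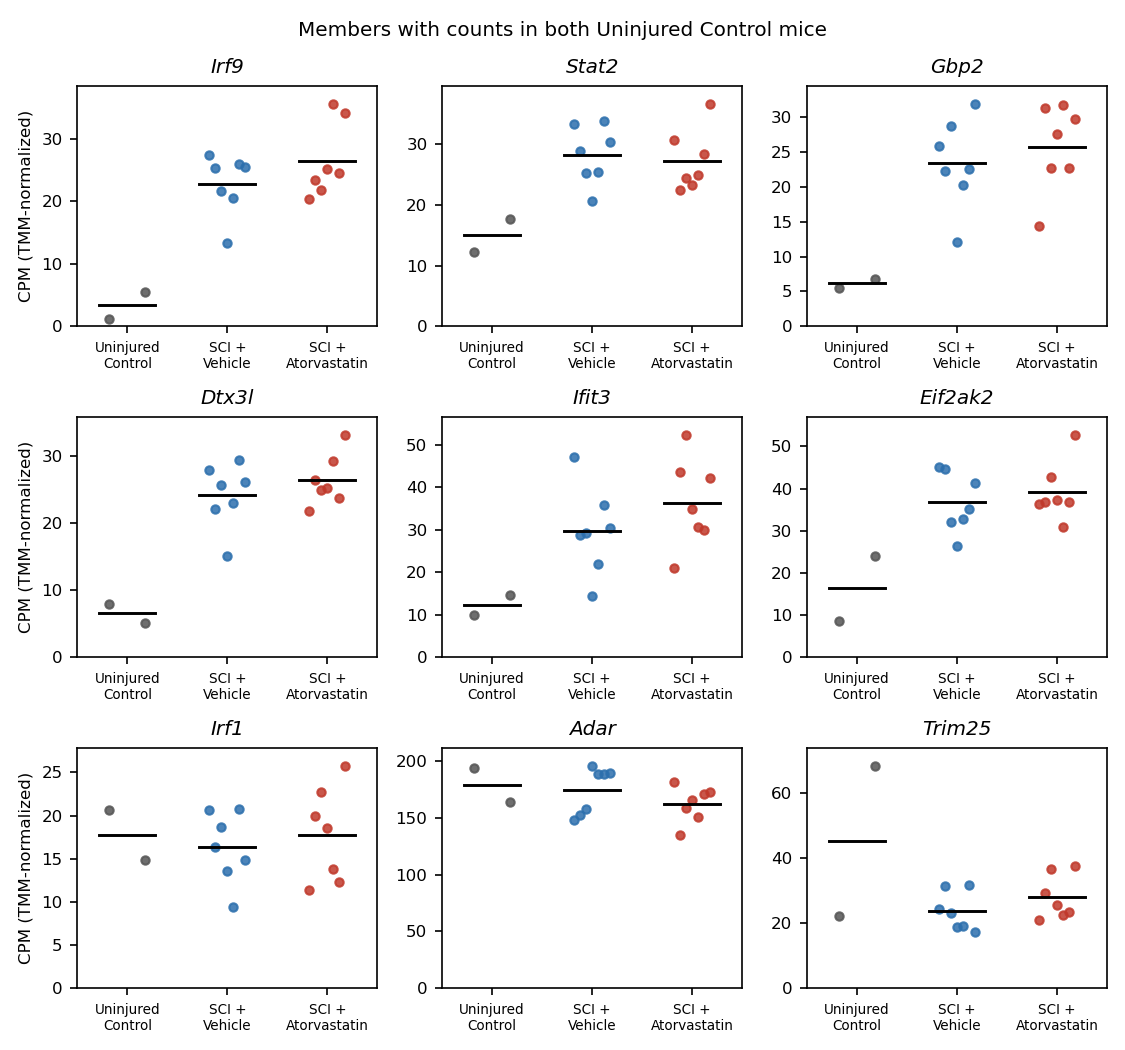
TMM-normalized CPM of 9 members with counts in both Uninjured Control mice, on linear axes from 0. Points are mice (2 controls, 7 SCI + Vehicle, 7 SCI + Atorvastatin) and bars are group means. Irf9, Stat2, Gbp2, Dtx3l and Eif2ak2 lay above both controls in every SCI mouse, Irf1 and Adar overlapped them, and Trim25 was high in control 2 alone.

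Of the 8 other targets, 5 were called higher in both conditions. Lgals3bp, a secreted glycoprotein that binds galectin-3, measured 108, 127 and 182 CPM with vehicle, 109, 119 and 174 CPM with atorvastatin, and 23.4 and 0 CPM in the controls. It was the member with the most counts after Adar, and even control 1, with 465 counts, lay well below every SCI mouse. The log2 fold change was 3.57 ± 1.10 (adjusted p = 0.0322) and 3.48 ± 1.11 (adjusted p = 0.0303). It was lost without SCI + Vehicle replicate 1, 2, 3, 4 or 6 and without SCI + Atorvastatin replicate 3, 4, 5 or 7, at adjusted p of 0.0503 to 0.0559, and without control 2, the one at 0, Lgals3bp was at 2.56 and 2.47 and called in both. Sp100, a component of nuclear bodies, was called at 4.10 and 4.52 with 30 and 0 counts in the controls. With vehicle the call was lost without replicate 1, 2, 3, 5 or 6, at adjusted p of 0.0668 to 0.0738, and without control 2 Sp100 was at 3.09 and 3.50 and called in both. Ifi27 was not called (0.31 ± 0.47 with vehicle), with its controls far apart at 7.29 and 28.0 CPM, and without control 2 its log2 fold change was 1.58 with an adjusted p of 0.00946. Ifi35 and Xaf1 were not called either.

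**Figure D3:**
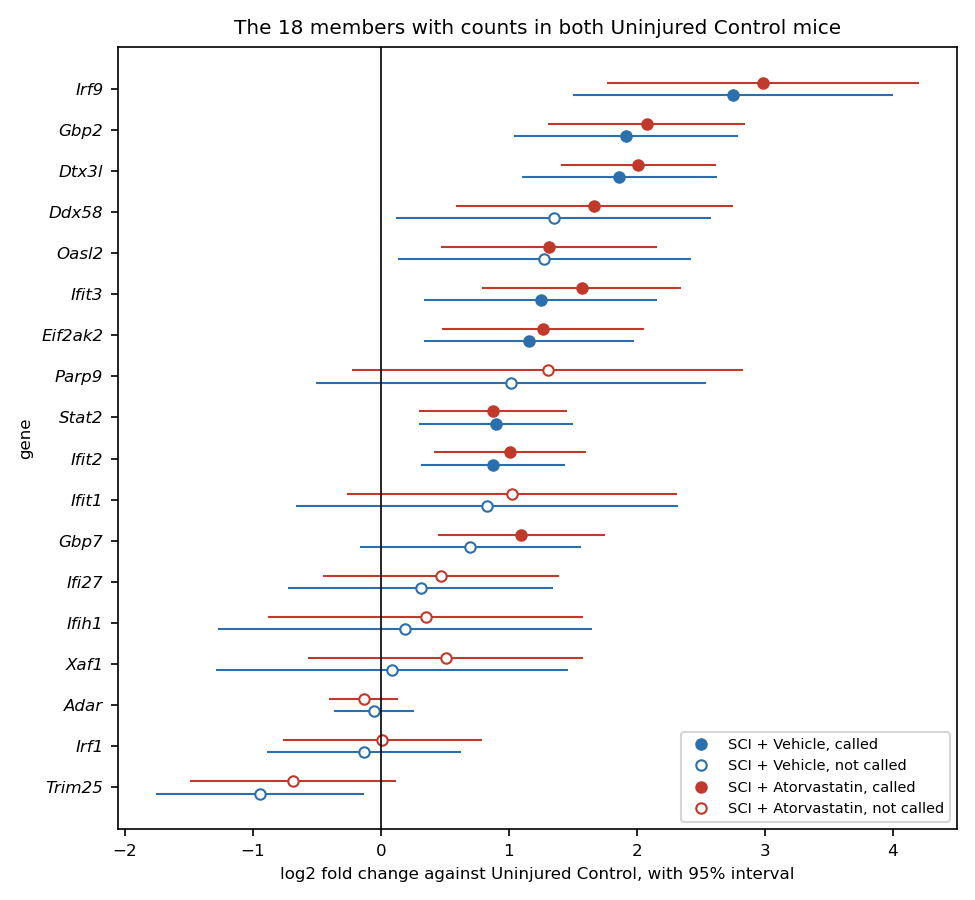
Log2 fold change against Uninjured Control with its 95% interval for the 18 members with counts in both controls, for SCI + Vehicle and SCI + Atorvastatin. Filled points were called (7 with vehicle, 10 with atorvastatin) and open points were not. Irf9, Gbp2 and Dtx3l were the highest, and Adar, Irf1 and Trim25 the lowest.

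For the 10 tested members at 0 counts in both controls no fold change can be fitted, and only a lower bound can be given, against 3 counts in the control where those weigh more. The bounds use TMM-normalized CPM, not the CPM by library size given above for a count of 0. Slfn2, a regulator of T cell and monocyte quiescence, was higher by at least 82.9-fold (vehicle) and 93.4-fold (atorvastatin), at 78 to 440 and 215 to 443 counts per mouse. Usp18, the protease that removes ISG15 and damps the type I receptor, was at least 55.9-fold and 67.0-fold higher, with 56 to 364 counts in the SCI mice. Rsad2, which encodes viperin, was at least 40.9-fold and 41.6-fold higher, and Bst2, which encodes tetherin, 37.3-fold and 49.4-fold. The bounds of the others, in the same order of treatments, were 30.0-fold and 32.2-fold for Rtp4, 29.2-fold and 26.3-fold for Zbp1, 21.3-fold and 27.2-fold for Oas2, 17.3-fold and 24.7-fold for Oas1a, 16.1-fold and 19.8-fold for Isg15, and 14.1-fold and 12.1-fold for Ifi44. No SCI mouse was at 0 for any of these, but Ifi44 in SCI + Vehicle replicate 6 had 2 counts, below the 3 counts that a 0 allows. Since the filter kept these members for their level after injury, their calls and the gap to the controls are given as a description. Since genes of similar level that are not interferon targets are also at 0 in these controls, the part that the control libraries play in these bounds was not tested.

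Around the members, 34 of 44 listed genes of the pathway were tested, and 14 were called higher and 0 lower with vehicle, and 18 higher and 1 lower with atorvastatin. Of all genes, 20.1% were called higher and 9.69% lower with vehicle, and 25.2% and 14.2% with atorvastatin. The ligands were at or near 0. All 10 listed interferon genes had 0 counts in both controls. Ifnb1, Ifna4 and Ifnl2 had 0 counts in every mouse, Ifng had at most 11 counts, and Ifnk, the only ligand that passed the filter, had at most 36. Ifnk was called higher with atorvastatin, a call largely fixed by the filter. With vehicle its adjusted p was 0.0582, and tested directly the treatments differed in it by 0.42 ± 0.74 (SE). Of the receptor subunits, Ifnar2 was called in both conditions (log2 fold change 0.88 ± 0.24, adjusted p = 0.0174, with vehicle and 1.12 with atorvastatin, adjusted p = 0.0011), and Ifngr2 and Il10rb with atorvastatin alone. Ifnar1 was not called, at -0.10 and 0.17. Jak1 was at 0.01 and 0.02, and Tyk2 was called at 1.54 in both conditions.

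The transcription factor gene Stat3, the nucleotide hydrolase gene Samhd1, and the negative regulators Socs3, Ptpn1 and Ptpn6 were also called in both, as were the sensors and adaptors Tlr7, Tlr9, Mb21d1 (cGAS), Tmem173 (STING) and Mavs, all 5 of which had 0 counts in both controls. The negative regulator Socs1, also at 0 counts in both controls, was called with atorvastatin alone. The calls of these 5 and of Socs1 were largely fixed by the filter, like that of Ifnk. Of all genes at 0 in both controls, 73.2% and 84.2% were called higher with vehicle and atorvastatin. Tbk1, the kinase that activates IRF3, was the gene called lower with atorvastatin, at -0.43 (adjusted p = 0.0345). With vehicle Tbk1 was at -0.46 (adjusted p = 0.0671), and tested directly the treatments differed in it by 0.0001 ± 0.080 (SE).

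Markers of some cell types moved with the same comparisons. Of all genes, 20.1% and 25.2% were called higher with vehicle and atorvastatin, and 9.69% and 14.2% lower. Of 10 microglia or macrophage markers, 7 and 8 were called higher with vehicle and atorvastatin, and their summed level was 2104 to 3027 TPM and 2588 to 3684 TPM in the SCI groups against 194 and 334 TPM in the controls. For 5 astrocyte markers, of which 4 were called higher in both, the sums were 7120 to 8707, 7844 to 9007, and 1988 and 2847 TPM. The 9 lymphocyte markers were all at 0 counts in the controls and summed to 0.34 to 24.9 TPM with vehicle and 5.76 to 15.1 TPM with atorvastatin. Of 6 neuron markers 5 were called lower in both conditions. Of 5 oligodendrocyte markers 1 and 2 were called lower with vehicle and atorvastatin, and of 4 peripheral nerve markers 0 and 2. Of 6 tested monocyte or neutrophil markers 2 and 3 were called higher, and of 5 endothelium markers 0 and 1. The monocyte or neutrophil markers called were Ccr2 and Retnlg, and Ly6c2 with atorvastatin. All had 0 counts in both controls, so the filter largely fixed their calls. S100a8, S100a9 and Mpo, with counts in a control, were not called. The 5 fibroblast markers gave 0 and 4 called higher, and the 3 tested plasmacytoid dendritic cell markers gave 1 in each. That 1 was Ccr9, also at 0 counts in both controls. The part of these markers in the members' differences was not tested.

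Comparing SCI + Atorvastatin with SCI + Vehicle asks whether the treatment changed the genes of the injured cord. Of the 40 members, 0 were called in either direction (edgeR, change above 25%, p below 0.001), where 0.107% of all genes were. DESeq2 also called 0. At an unadjusted p below 0.05 there was 1 of 40, where 7.11% of all genes reached that level, and 0 had an adjusted p below 0.05. That member was Parp14, higher with atorvastatin by 0.40 ± 0.18 (log2, SE, 95% interval 0.02 to 0.78, adjusted p = 0.688), from 16.2, 39.7 and 44.6 CPM to 37.7, 44.2 and 59.1 CPM. The groups overlapped. The members with the next smallest p were Gbp7 (0.38 ± 0.19), Ifi35 (0.50 ± 0.26), Samd9l (0.36 ± 0.21) and Ifitm3 (0.32 ± 0.19), all higher in value with atorvastatin and with adjusted p of 0.721 to 0.741.

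**Figure D4:**
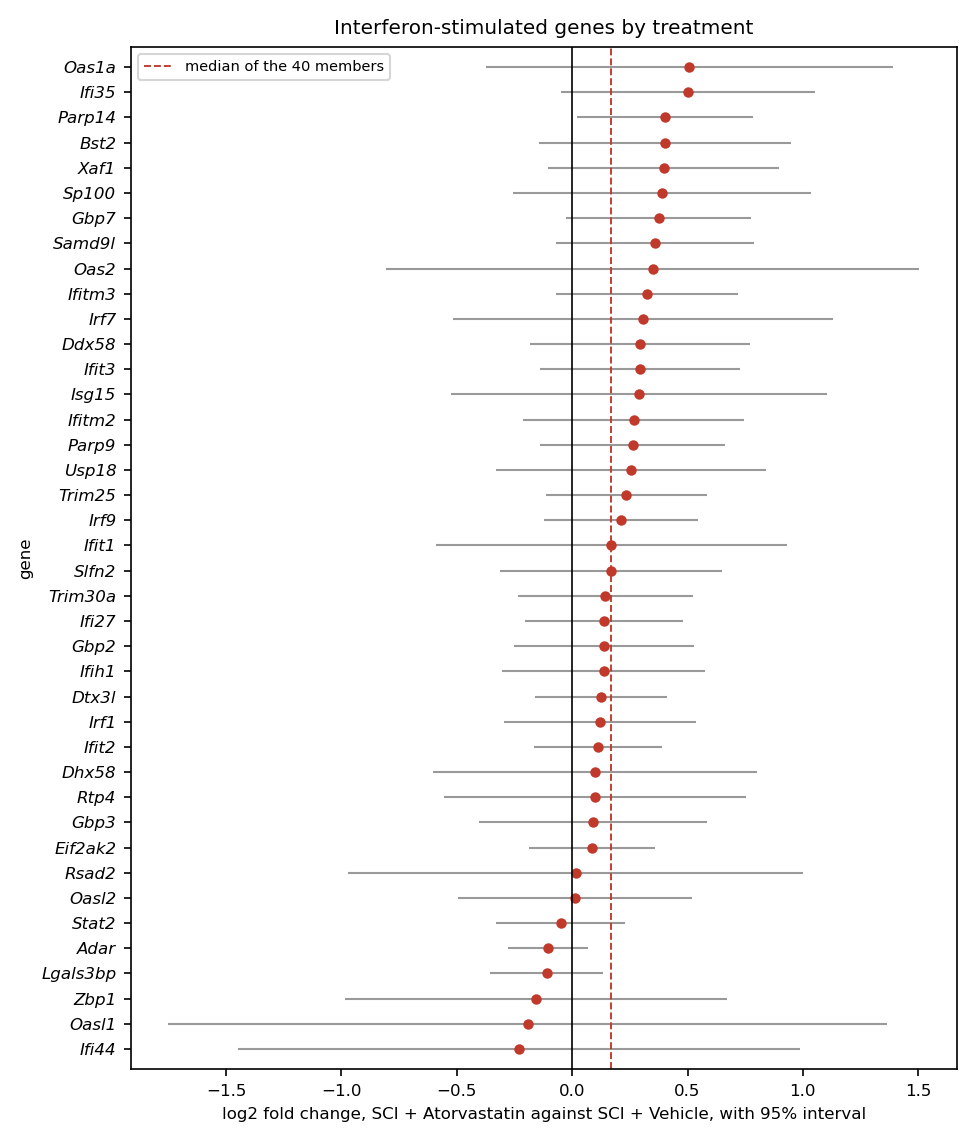
Log2 fold change of SCI + Atorvastatin against SCI + Vehicle for the 40 members tested, with 95% intervals, ordered by size. The dashed line is the members' median, 0.17. Every interval except that of Parp14 includes 0.

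In value, 34 of the 40 members were higher and 6 lower with atorvastatin, with a median log2 fold change of 0.17, where 7830 of 15931 genes were higher and the median of all genes was -0.0032. The values ran from -0.23 for Ifi44, a member with few counts, to 0.51 for Oas1a. The intervals differ in what they allow. For Stat2 the 95% interval was -0.33 to 0.23 and for Adar -0.28 to 0.07, where a rise of 25% is 0.32 on this scale. For Isg15 it was -0.53 to 1.11 and for Oas2 -0.81 to 1.51, so a rise of 2-fold lay within both intervals. The members called with atorvastatin alone against the controls, Ddx58, Oasl2, Ifitm3 and Gbp7, had direct log2 fold changes of 0.29, 0.01, 0.32 and 0.38 between treatments, and 0 of the 4 passed that test. Beside this, all 10 microglia or macrophage markers were higher in value with atorvastatin (1 with p below 0.05) and all 5 fibroblast markers had p below 0.05 in that direction. Their part in the members' values was not tested.

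The members did not vary evenly over the mice of a group. In SCI + Atorvastatin, replicate 3 held the highest value of 7 for 18 of 40 members and replicate 7 for 16, and replicate 1 the lowest for 22. The same mice held 15.9%, 13.4% and 16.7% of all genes in those places. In SCI + Vehicle, replicate 1 was highest for 16 and replicate 6 for 11, against 20.5% and 11.2% of all genes. Replicate 1 was also lowest for 22.1% of all genes. Replicate 4 was lowest for 28 of 40, while it was lowest for 16.1% of all genes. The median deviation of the members from the group median in that mouse was -0.73 (log2), against 0.39 in SCI + Atorvastatin replicates 3 and 7. SCI + Vehicle replicate 4 had the fewest counts, 610 TPM summed over the members, 2423 TPM of microglia markers and 94.97 TPM of fibroblast markers. SCI + Atorvastatin replicate 3 had 1213 TPM of members and 3684 TPM of microglia markers, the most of any mouse, and replicate 7 had 1254 and 2874 TPM. The part of these in the members' levels was not tested.

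**Figure D5:**
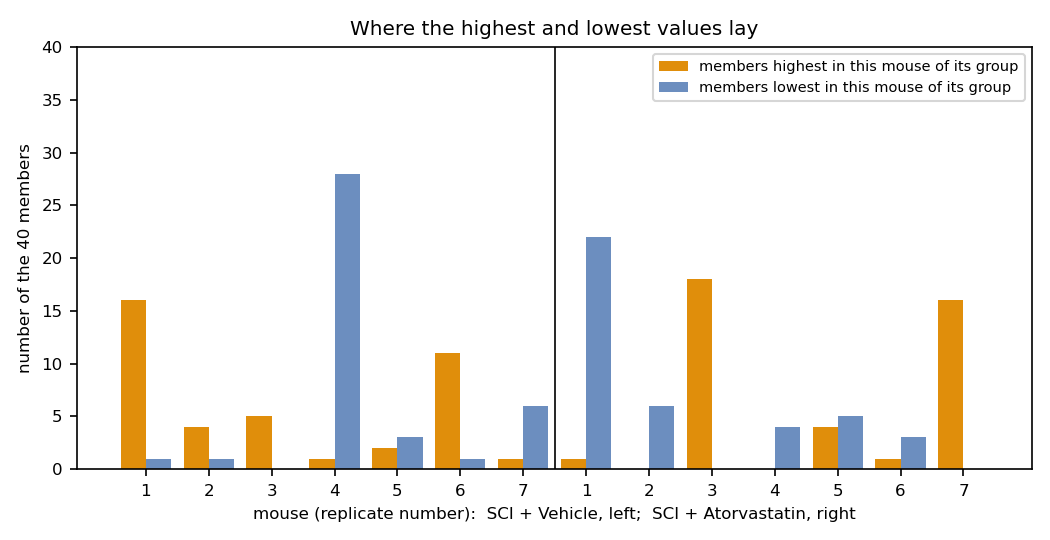
Number of the 40 members (vertical axis) whose highest and lowest TMM-normalized CPM of the group lay in each SCI mouse (horizontal axis). The lowest values concentrated in SCI + Vehicle replicate 4 (28 of 40) and SCI + Atorvastatin replicate 1 (22 of 40), and the highest in SCI + Atorvastatin replicates 3 and 7 and SCI + Vehicle replicate 1. Over all genes the shares were 16.1% and 16.7% (lowest) and 15.9%, 13.4% and 20.5% (highest), in the same order.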

How the data were processed

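RNA from the spinal cord of 16 mice was sequenced from stranded total RNA libraries. Reads were trimmed by the authors with Trimmomatic 0.38, aligned to mm10 with STAR 2.5.4b and quantified with RSEM 1.3.1, as the submitters' processing notes list them. The deposited counts are whole numbers per gene with no normalization, and the step that made them is not given in the sources used here. The deposited TPM were normalized for gene length and library by the authors.

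Genes whose mean TPM exceeded 1 in any condition (16091) were kept. Their counts were compared by the quasi-likelihood test of edgeR 4.0.16 in R 4.3.3, after TMM normalization, using the mice of both groups compared and Benjamini-Hochberg adjustment over the genes tested. Genes without counts in a fit were dropped, which left 15938, 15922 and 15931 genes. Calls needed a change above 25% with an adjusted p below 0.05 against the controls or an unadjusted p below 0.001 between treatments, and p-values are two-sided. Each library came from 1 mouse, by the labels and the study's methods. DESeq2 1.42.0, limma 3.58.1 and other filters were alternatives. Scripts were tested on simulated data. The members and lists were chosen with earlier results of these data known. Named members were, by rule, the 3 tested ones of highest mean TPM in each role, those called or with the 5 smallest p between treatments, those called lower than in the controls, those called in 1 SCI condition only, those with 3 counts or fewer in both controls, and those that failed the filter. Irf7, Ifih1, Dhx58, Ifit1, Ifit2, Sp100, Xaf1 and, among pathway genes, Tbk1 and Socs1 were named after their values were seen.

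Promoters and gene positions are from RefSeq on GRCm38.p6, the assembly of mm10, and figures were drawn with matplotlib 3.10.9.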

Additional observations from a re-analysis of the deposited data

Results flagged for a closer look

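In 82 groups of 7 mice (41 members in each treatment), 6 held a mouse far from the rest by the gap between it and its neighbour relative to the whole range, and about 5% of groups would by chance. That share is a guide only, since the members were measured in the same mice and the groups are not independent. The values were taken on the linear scale. All 6 were high values, in TMM-normalized CPM. SCI + Atorvastatin replicate 3 stood apart for Rsad2 (16.6, others 3.30 to 5.60), Ifit1 (40.03, others 6.82 to 17.8) and Oas1a (6.26, others 2.53 to 4.03). SCI + Atorvastatin replicate 7 stood apart for Oasl2 (33.3, others 14.01 to 21.9). SCI + Vehicle replicate 1 stood apart for Ddx58 (34.4, others 10.2 to 18.5) and Oas2 (8.88, others 0.409 to 3.91), and there Oas2 had 211 counts but 0.53 TPM.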

How the results depend on the processing

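SCI + Vehicle vs. Uninjured Control called 20 of 40 members higher, and 12 at an adjusted p below 0.01. With genes of mean TPM above 1 in every condition it called 7 of 27, where 1270 of 12488 genes were called. With at least 10 counts in every mouse it called 7 of 18, where 1334 of 10854 genes were. Voom group weights and the replicate number as a block each called 0 members, and 22 and 16 of 15938 genes higher. Only replicates 1 and 2 share a number with the controls. The block comparison rests on those mice alone, so its 0 calls decide nothing about the members. Medians of the log2 fold change were 1.28 (mean TPM), 0.88 (10 counts), 4.20 (voom) and 4.20 (block). Among genes with counts in both controls, an alternative chosen after seeing the data, 7 of 18 members were called at a median of 0.88. SCI + Atorvastatin vs. Uninjured Control called 24 of 40, and 14 at an adjusted p below 0.01. It called 12 of 27 (mean TPM), 10 of 18 (10 counts), 0 (voom), 0 (block) and 10 of 18 (counts in both controls). The medians, in that order, were 1.43, 1.05, 4.55, 3.53 and 1.05. Of all genes, the mean TPM filter called 1775 of 12485 higher and the filter of 10 counts 1879 of 10903. Voom called 31 of 15922 genes higher and the block 0. Leaving out each mouse gave 13 to 29 (vehicle) and 22 to 32 (atorvastatin) called higher, 0 to 2 called lower in either, and medians of 1.85 to 3.17 and 2.03 to 3.37. The 2 lower calls came without control 1, as did the highest medians, and 13 without SCI + Vehicle replicate 6. With all 3 groups in 1 fit 1 member was called lower with vehicle. Between treatments, 0 members were called under each alternative, the block included. Same-numbered mice of the treatments did not deviate together over the genes (correlations of -0.19 to 0.11). The labels call them biological replicates and name no pairing, and correlations near 0 cannot exclude one.

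Under at least 1 alternative, 8 of 40 members changed sign with vehicle, 6 with atorvastatin and 12 between treatments, where 0 were called. With vehicle, Irf1 was 1.55 with limma on log2(TPM + 1) and 0.054 with the block, Adar 0.083 with limma, and Oasl1 0.16 with voom and 0.33 with the block. Leaving out each mouse gave -0.35 to 0.12 for Irf1, -0.17 to 0.075 for Adar, -3.76 to 7.57 for Oasl1, -1.54 to 0.082 for Trim25 and -0.35 to 1.58 for Ifi27, with both ends of each range set by leaving out a control, and -0.57 to 1.32 for Xaf1, -0.63 to 2.26 for Ifih1 and -0.09 to 10.19 for Ifi35. With atorvastatin the members were Irf1, whose 0.01 ranged from -0.21 to 1.54, Ifih1, Oasl1, Trim25, Ifi27 and Xaf1. The median of all genes moved from 0.18 to 0.63 without a filter and to 0.49 with limma. The cause of these moves was not tested, beyond fewer genes or mice entering a fit. The number of controls, 2, and their zeros limit every comparison with uninjured cord, while their depth lay within the range of the SCI mice.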
